A study of Mus musculus with 4 samples.

Results

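The Sox transcription factor genes Sox1, Sox2, Sox4, Sox5, Sox6, Sox8, Sox9, Sox11, Sox12 and Sox13 were followed in cells sorted from the mouse retina at E17.5, late in embryonic development. All 10 genes named had a feature (a probe set of the array) with 1 gene symbol, 1 feature each. Of 22431 features, 20176 carried 1 gene symbol, and these stood for 18920 genes. All arrays came from BAC-Crx-EGFP mice on a 129Sv/Ev background, which carry a bacterial artificial chromosome with the enhanced green fluorescent protein (EGFP) driven by regulatory sequences of Crx, a photoreceptor gene. Dissected retinas were sorted into EGFP-positive and EGFP-negative cells, and 100 ng of RNA per sample was measured on Affymetrix arrays as 2 samples per fraction. The positive fraction is defined by the transgene, and the negative fraction holds every other retinal cell. The labels do not say whether the replicates are separate animals, litters or sorts, or whether animals were pooled, so each p-value reflects the spread of these 4 samples alone and that spread may be technical.

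Sox proteins bind DNA through a high mobility group (HMG) box that sits in the minor groove and bends the helix, and they are grouped by the similarity of that box. The SoxB1 genes Sox1 and Sox2 are linked to neural progenitors, and Sox2 to those of the neural retina. There the SoxE genes Sox8 and Sox9 are linked to progenitors and to Müller glia, the radial glia of the retina. The SoxC genes Sox4, Sox11 and Sox12 are linked to newborn neurons, including ganglion cells. The SoxD genes Sox5, Sox6 and Sox13 encode proteins with a coiled coil and no activation domain of their own, which modulate other factors.

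Sox2 was the 1 member that passed the test, 2.57-fold higher in the negative cells. The SoxB1 and SoxE genes and Sox13 had lower means in the EGFP-positive fraction, and the SoxC genes with Sox5 and Sox6 had higher means, with no difference between groups tested. Counted by limma's adjusted p under 0.05 over all 22431 features, 1 of 10 members was lower in the positive fraction, against 0.143% of all features, and 0 of 10 were higher, against 0.82%. At an unadjusted p under 0.05, 3 members were lower (9.83% of all features) and 3 were higher (9.34%). Both positive arrays lay below both negative arrays for 4 members (25.3% of all features) and above them for 5 (22.3%), and Sox8 was the 1 member whose fractions overlapped. The median size of the log2 difference was 0.56 over the members and 0.13 over all features. The smallest difference that limma called among all features was 0.75 in size, or 1.68-fold, so no smaller difference was called. The direction of a difference is positive minus negative throughout, and ± after a difference is limma's standard error (SE, n = 2 per fraction).

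**Figure D1:**
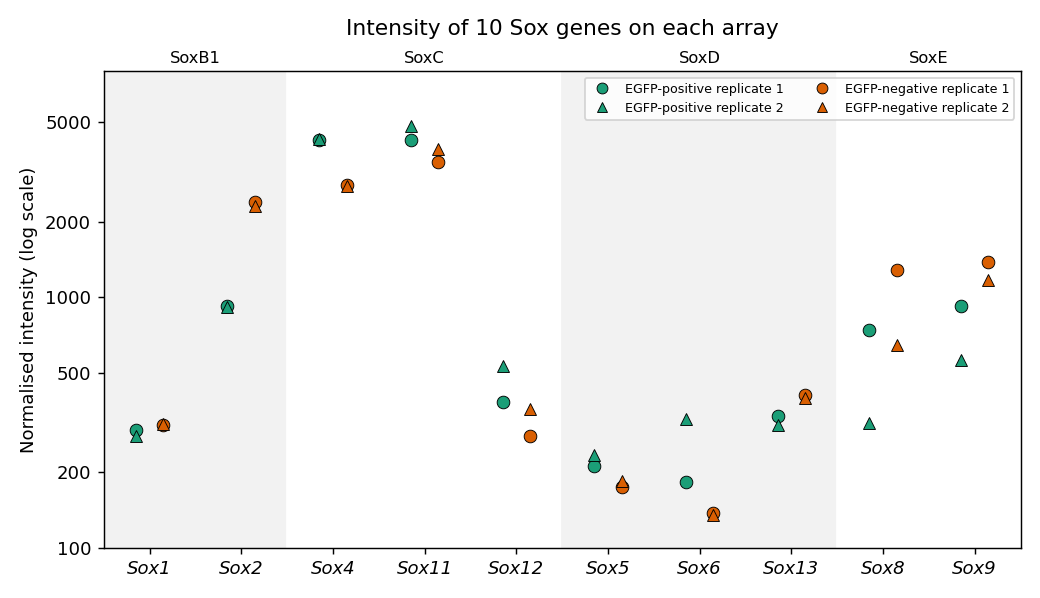
Normalised intensity (log scale) of each Sox gene on the 4 arrays, with green symbols for EGFP-positive and orange symbols for EGFP-negative samples, circles for replicate 1 and triangles for replicate 2. The fractions are apart for 9 genes and overlap for Sox8; the height of 1 gene should not be read against another, because each is read by its own probes.

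The marker lists were chosen with earlier results of these data known, so their counts describe the fractions and do not test the sort. Crx, whose regulatory sequences drive the reporter, differed by 3.66 ± 0.19 on the log2 scale (limma adjusted p = 0.00596). Of 12 photoreceptor markers 9 were called higher in the positive fraction, against 0.82% of all features, and 12 of 12 had a positive difference. Their summed intensity was 25810.9 and 31264.1 on the positive and 4358.2 and 4397.3 on the negative arrays. Of 11 measured progenitor and cell cycle markers 10 had a negative difference (median -1.01), 0 were called by limma and 9 had a negative difference at an unadjusted p under 0.05, against 9.83% of all features. A fit without 1 positive array takes its spread within fractions from the negative arrays alone, so its calls are no added support for a gene. Their summed intensity was 28199.7 and 19829.6 on the positive and 43848.5 and 42188.6 on the negative arrays. No RNA of either fraction was resolved by cell, so fewer cells of a type and less RNA per cell cannot be told apart.

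Sox2, which keeps retinal progenitors competent to divide and to form neurons, was lower in the EGFP-positive fraction. Its feature (10491477) read 921.5 and 917.5 on the positive arrays and 2404.7 and 2318.8 on the negative arrays. The replicates of each fraction nearly coincided, and the fractions stood well apart. Sox2 fell by 1.36 ± 0.10 on the log2 scale (95% interval -1.61 to -1.11, limma adjusted p = 0.0119), which placed it at rank 37 from the lowest of 22431 differences. The 4 single pairs of arrays gave differences of -1.39 to -1.33. Its mean, like that of the 9 other members, lay above the 25th percentile of all features. The progenitor and cell cycle markers given above had lower summed intensity on the same arrays, and their part in the difference of Sox2 was not tested. Without negative replicate 1 the difference was -1.33 (adjusted p = 0.164) and without negative replicate 2 it was -1.39 (adjusted p = 0.127); in those fits limma called 0 features of the whole array, with 2346 and 3134 at an unadjusted p under 0.05.

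The 3 genes whose log2 values, centred on the mean of the 4 arrays, lay nearest to those of Sox2 were Oip5, Fignl1 and Dbi. Oip5 is needed to build centromeres, Fignl1 acts in recombinational DNA repair and Dbi encodes an acyl-CoA binding protein. Their root mean square distances from Sox2 over the 4 arrays were 0.11, 0.12 and 0.12 on the log2 scale. Oip5 read 120.3 and 112.9 on the positive and 287.3 and 247.0 on the negative arrays. Oip5 was named for its likeness to Sox2, and its single pairs ran from -1.35 to -1.04, wider than those of Sox2. The nearest other Sox gene was Sox9, at a distance of 0.37, and the farthest was Sox6, at 1.14.

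The other SoxB1 gene, Sox1, whose product overlaps with Sox2 in neural progenitors, read 295.0 and 280.3 on the positive and 309.5 and 311.6 on the negative arrays. Its fractions did not overlap but lay close together, with a difference of -0.11 ± 0.10 (95% interval -0.36 to 0.14, adjusted p = 0.653). The interval for Sox1 excludes a drop in intensity of the size seen for Sox2. Sox1 read not far above the array medians of 218.4 to 222.9, and no detection call was used. The interval therefore describes the intensity and may not describe the RNA. RefSeq also places the long noncoding RNA gene Sox1ot across Sox1, and its own feature had a difference of -0.13 ± 0.12. Sox2 lies inside a similar gene, Sox2ot, for which no feature was named, and the sources used here do not give the strand or exons that the Sox2 probes read.

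The promoter of Sox2 is shown because it was the member that passed the test; the window runs from 250 bases before to 50 after the RefSeq start of the gene (GRCm38.p6, chr3:34649745-34650044, plus strand). Capitals mark matches, on either strand, to ACAAT as a core of SOX sites, to ACAAAG as a core shared with TCF factors, and to CCAAT as the usual box of that name. TAATCC as the core of CRX and OTX sites and ATGCAAAT as the octamer of POU factors were searched in the same way.
Sox2: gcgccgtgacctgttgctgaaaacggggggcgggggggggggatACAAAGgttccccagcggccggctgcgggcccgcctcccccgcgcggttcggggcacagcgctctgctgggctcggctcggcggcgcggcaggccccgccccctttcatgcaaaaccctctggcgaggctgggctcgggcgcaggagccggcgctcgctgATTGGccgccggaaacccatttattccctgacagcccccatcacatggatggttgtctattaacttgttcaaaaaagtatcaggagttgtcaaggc
The Sox2 window held 1 ACAAAG, which 18.7% of all 32851 promoters in the table hold, and 1 CCAAT box, which 37.4% hold. It held no TAATCC, found in 7.06% of promoters. These letter matches are a description and not evidence of binding.

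The SoxC genes had higher means in EGFP-positive cells, and none of the 3 was called. Sox4, which promotes the differentiation and survival of newborn neurons, read 4256.8 and 4274.9 on the positive and 2800.8 and 2771.6 on the negative arrays. The fractions were again far apart relative to the replicates, with 0.517% of all features showing a smaller spread within fractions than Sox4. Its difference was 0.61 ± 0.10, or 1.53-fold (95% interval 0.37 to 0.86, adjusted p = 0.0677).

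Sox11, the close relative of Sox4 in newborn neurons, read 4257.3 and 4834.0 on the positive and 3479.5 and 3901.5 on the negative arrays. Replicate 2 was the brighter array in both fractions, and the lower positive array exceeded the higher negative one by 0.13 on the log2 scale. The difference was 0.30 ± 0.12 (95% interval -0.01 to 0.61, adjusted p = 0.275). Sox12, the most weakly activating of the SoxC proteins, read 380.7 and 531.2 on the positive and 278.6 and 357.6 on the negative arrays. Its replicates differed nearly as much as its fractions, and the difference was 0.51 ± 0.21 (95% interval -0.02 to 1.04, adjusted p = 0.275). Sox12 differed by 0.75 without positive replicate 1 and by 0.27 without positive replicate 2.

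The SoxC promoters are shown because the 3 genes pointed the same way. They are Sox4 (GRCm38.p6, chr13:28953650-28953949, minus strand), Sox11 (chr12:27342669-27342968, minus strand) and Sox12 (chr2:152397997-152398296, minus strand), over the same window and with the same motifs in capitals.
Sox4: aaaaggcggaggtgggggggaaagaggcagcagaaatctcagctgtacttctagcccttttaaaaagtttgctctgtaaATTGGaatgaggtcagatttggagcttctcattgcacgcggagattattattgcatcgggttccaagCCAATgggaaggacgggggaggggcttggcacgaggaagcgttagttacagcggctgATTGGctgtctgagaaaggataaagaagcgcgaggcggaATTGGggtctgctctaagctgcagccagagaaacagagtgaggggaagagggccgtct
Sox11: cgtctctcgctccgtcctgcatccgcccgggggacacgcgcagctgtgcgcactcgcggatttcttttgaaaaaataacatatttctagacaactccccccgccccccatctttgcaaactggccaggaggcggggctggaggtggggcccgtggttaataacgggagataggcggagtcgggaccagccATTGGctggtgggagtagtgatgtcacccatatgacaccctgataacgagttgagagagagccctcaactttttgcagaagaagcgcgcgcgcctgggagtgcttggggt
Sox12: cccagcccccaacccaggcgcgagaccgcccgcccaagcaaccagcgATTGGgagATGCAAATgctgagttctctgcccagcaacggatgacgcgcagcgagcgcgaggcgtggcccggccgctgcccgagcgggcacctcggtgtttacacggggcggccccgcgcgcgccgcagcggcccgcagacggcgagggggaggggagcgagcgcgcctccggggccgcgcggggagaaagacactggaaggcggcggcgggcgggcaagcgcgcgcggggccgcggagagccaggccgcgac
The Sox4 window held 4 CCAAT boxes, and those of Sox11 and Sox12 held 1 each. The Sox12 window also held 1 ATGCAAAT octamer, found in 1.74% of all promoters, as did that of Sox1. No SoxC window held either SOX core or the CRX core. The share of G and C was 52% for Sox4, 58.7% for Sox11 and 76.7% for Sox12, against a median of 52.7% over all promoters. RefSeq promoters were matched for 9 of the 10 members.

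The SoxD genes were split. Sox6, known for its role with Sox5 in cartilage and in neuron subtype specification, read 183.2 and 325.5 on the positive and 137.9 and 134.9 on the negative arrays. The negative arrays agreed closely, while positive replicate 2 was far above positive replicate 1. All arrays but positive replicate 2 read under the array medians of 218.4 to 222.9. No detection call was used, so these values may not describe the RNA. The difference was 0.84 ± 0.27, or 1.79-fold (95% interval 0.15 to 1.53, adjusted p = 0.193). Without positive replicate 1 it was 1.26, and without positive replicate 2 it was 0.43. The noncoding gene Sox6os, which RefSeq places across Sox6, had a difference of -0.05 ± 0.14 on its own feature.

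Sox5 read 211.6 and 233.6 on the positive and 174.8 and 184.7 on the negative arrays. Here too only positive replicate 2 exceeded the array medians of 218.4 to 222.9, so the values may not describe the RNA. The fractions of Sox5 did not overlap, with a difference of 0.31 ± 0.11 (95% interval 0.03 to 0.58, adjusted p = 0.220). Sox13, which can bind TCF factors, read 336.0 and 309.8 on the positive and 407.3 and 397.0 on the negative arrays. Here the positive arrays were the dimmer ones, with a difference of -0.32 ± 0.10 (95% interval -0.58 to -0.06, adjusted p = 0.193). The intervals of Sox13 and of both other SoxD genes lay on opposite sides of 0, while none of the 3 was called over all features. The difference between these genes was not tested.

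**Figure D2:**
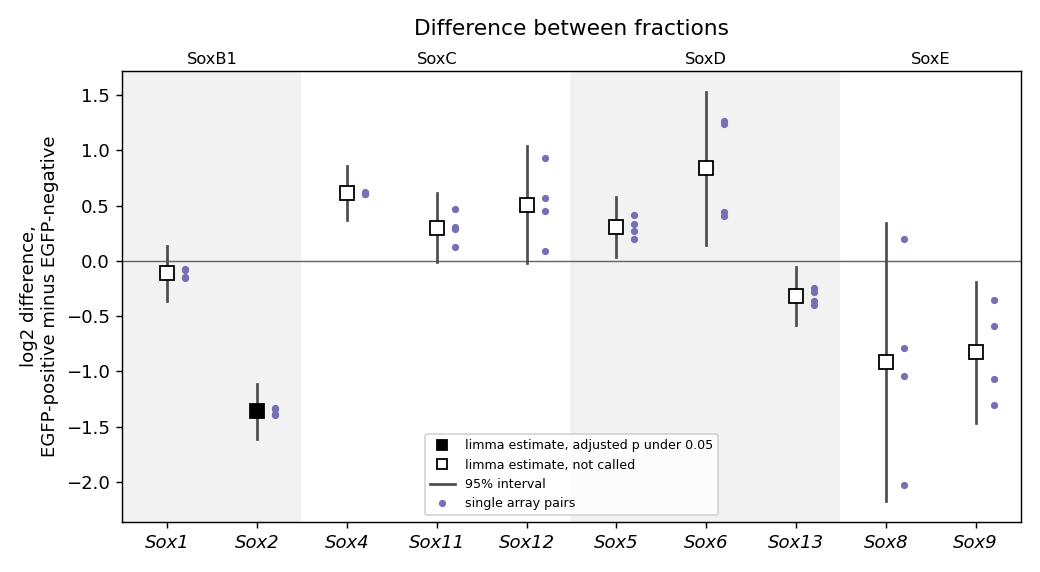
log2 difference of each Sox gene, EGFP-positive minus EGFP-negative, with squares for the limma estimate, lines for its 95% interval and small points for the 4 single pairs of arrays. Sox2 (filled, -1.36) was the called gene; the pairs of Sox2 and Sox4 nearly coincide, and those of Sox8 run from -2.03 to 0.20.

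The SoxE genes had lower means in EGFP-positive cells and, like Sox6 and Sox12, varied widely between replicates. Sox9, which is active in progenitors and stays on in Müller glia, read 920.4 and 561.5 on the positive and 1384.0 and 1176.7 on the negative arrays. The fractions did not overlap, and replicate 2 was lower than replicate 1 in both. The difference was -0.83 ± 0.25 (95% interval -1.46 to -0.19, adjusted p = 0.171). Without positive replicate 1 it was -1.18, and without positive replicate 2 it was -0.47.

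Sox8, which shares much of its function with Sox9, read 743.2 and 314.6 on the positive and 1282.2 and 647.5 on the negative arrays. Positive replicate 1 was brighter than negative replicate 2, so the fractions overlapped. The difference was -0.91 ± 0.50 (95% interval -2.17 to 0.35, adjusted p = 0.417), and it ran from -1.53 without positive replicate 1 to -0.29 without positive replicate 2. Of all features, 99.5% had a smaller spread within fractions than Sox8. Between arrays with the same replicate number the difference was -0.79 and -1.04.

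Replicate 2 gave the lower value of Sox8 and of Sox9 in each fraction. The log2 difference of replicate 2 minus replicate 1 was -1.24 (positive cells) and -0.99 (negative cells) for Sox8, and -0.71 and -0.23 for Sox9. Over all features, 95% of such differences were within 0.58 among positive and 0.46 among negative arrays. Sox12 moved the other way, by 0.48 and 0.36, and Sox11 by 0.18 and 0.17. Sox6 differed between the positive replicates by 0.83 and between the negative ones by -0.03. Sox2 and Sox4 differed by at most 0.05 in size in either fraction.

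Marker lists also differed between the replicates. Over all features 29% were higher and 32.4% were lower in replicate 2 of both fractions. Of 11 measured ganglion cell markers 9 were higher in replicate 2 of both fractions, with a median of 0.70 among positive and 1.14 among negative arrays. Their summed intensity was 8141.6 and 11617.9 on the positive and 5384.3 and 11243.6 on the negative arrays, in replicate order. Of 17 glial genes linked to SoxE factors 13 were lower in replicate 2 of both, with medians of -0.61 and -0.33. Their summed intensity was 16300.7 and 11558.4 on the positive and 20670.8 and 16526.7 on the negative arrays. Progenitor and cell cycle markers were lower in replicate 2 of both for 9 of 11 genes (medians -0.69 and -0.12). The neuronal genes linked to SoxC factors share Pou4f1, Isl1, Gap43, Stmn2 and Tubb3 with the ganglion cell markers. Of these neuronal genes 10 of 14 were higher in replicate 2 of both (medians 0.69 and 0.92). The part of these differences in the values of Sox8, Sox9, Sox11 and Sox12 was not tested.

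**Figure D3:**
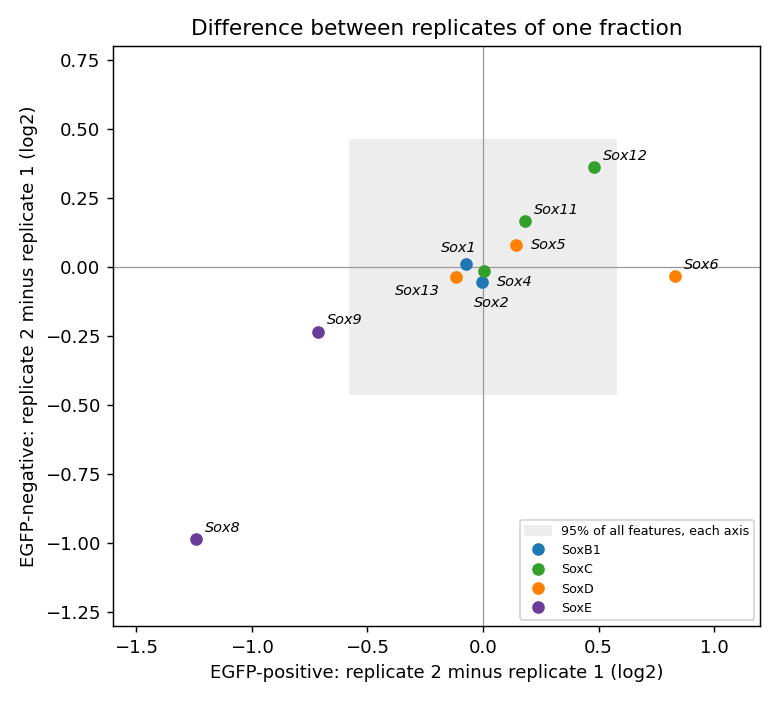
Difference of replicate 2 minus replicate 1 (log2) in the EGFP-positive (horizontal) and EGFP-negative (vertical) fraction, 1 point per Sox gene coloured by group, with a grey box that spans 95% of all features on each axis. Sox8 lies outside the box on both axes at -1.24 and -0.99, Sox6 and Sox9 on the horizontal axis only, and Sox2 and Sox4 near the origin.

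Leaving out 1 array at a time kept the sign of all 10 differences. For the 9 genes whose fractions do not overlap this had to be so and is no sign of stability. Sox2 was called with either positive array left out and with neither negative array left out. Sox6 ran from 0.43 to 1.26 and Sox9 from -1.18 to -0.47 in these fits.

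**Figure D4:**
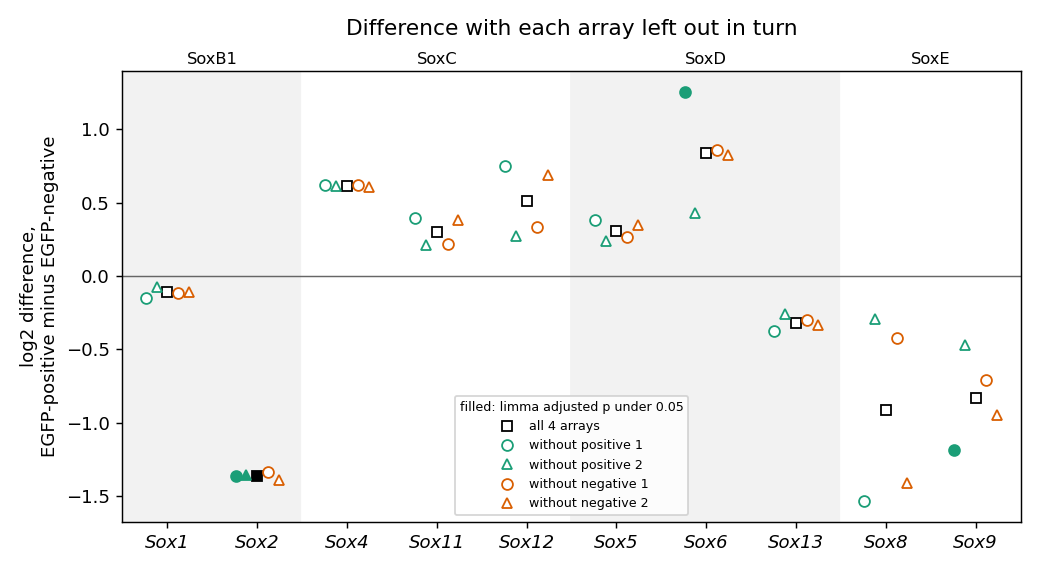
log2 difference of each Sox gene with all 4 arrays (black squares) and with 1 positive (green) or 1 negative (orange) array left out, filled where the limma adjusted p was under 0.05. Sox2 stays between -1.39 and -1.33 and Sox4 between 0.61 and 0.62, while Sox6 spans 0.43 to 1.26 and Sox8 -1.53 to -0.29.

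Of the other Sox genes 9 of 10 listed had a feature, and their differences were small. They ranged from -0.13 to 0.06, with 3 above 0 and 6 below, a median of -0.03, 0 called by limma and 0 at an unadjusted p under 0.05. Sox3, the third SoxB1 gene, read 380.3 and 369.3 on the positive and 421.8 and 399.7 on the negative arrays (-0.13 ± 0.10, adjusted p = 0.586). Sox21, a SoxB2 gene that counteracts SoxB1 proteins, differed by -0.12 ± 0.10. The endothelial genes Sox17 and Sox18 differed by -0.09 ± 0.11 and -0.10 ± 0.11, and their relative Sox7 by 0.02 ± 0.21. Sox10, the SoxE gene of neural crest and oligodendrocyte lineages, read 187.9 to 210.5 on the 4 arrays (-0.03 ± 0.11). Sox14, Sox30 and Sry differed by -0.01 ± 0.12, 0.06 ± 0.15 and 0.06 ± 0.12. No detection call was used here, and the mean of Sox17 lay under the 25th percentile of all features.

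Genes known as SoxB1 partners or progenitor targets had 6 of 14 measured members above 0 and 8 below, with a median of -0.08. Fabp7, a brain lipid-binding protein gene of radial glia, was called and was higher in the positive cells, opposite to Sox2. It read 1280.1 and 1369.1 on the positive and 204.2 and 186.9 on the negative arrays, a difference of 2.76 ± 0.11 (adjusted p = 0.00576). The Notch targets Hes1 and Hes5 differed by -1.50 ± 0.40 (adjusted p = 0.138) and -0.85 ± 0.22 (adjusted p = 0.137), and the progenitor factor Lhx2 by -0.80 ± 0.25 (adjusted p = 0.182). None of these 3 was called. With 1 array left out Hes1 ran from -2.065 to -0.93, Hes5 from -1.17 to -0.53 and Lhx2 from -1.15 to -0.44.

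Glial genes linked to SoxE factors had 12 of 17 members below 0 and a median of -0.58. Fabp7 belongs to this list too and was its 1 called gene, higher in the positive cells, against 0.82% of all features. At an unadjusted p under 0.05, 6 of the 17 had a negative difference, against 9.83% of all features. Zfp36l1, an RNA-binding regulator, differed by -1.34 ± 0.46, Id3, an inhibitor of proneural factors, by -1.33 ± 0.26, and Slc1a3, the glial glutamate transporter, by -1.28 ± 0.34. Their adjusted p ranged from 0.0874 for Id3 to 0.212 for Zfp36l1. Zfp36l1 ran from -2.003 to -0.67, Id3 from -1.69 to -0.97 and Slc1a3 from -1.79 to -0.76 with 1 array left out.

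Neuronal differentiation genes linked to SoxC factors had 8 of 14 measured members above 0 and a median of 0.34. Neurod1, a factor of photoreceptor differentiation that also stands among the photoreceptor markers, was the 1 member called (2.06 ± 0.14, adjusted p = 0.0111). Over all features 0.82% were called higher. The migration gene Dcx differed by 0.95 ± 0.55, the tubulin gene Tubb3 by 0.77 ± 0.18 and Atoh7, the factor that makes progenitors competent for ganglion cell fate, by -0.61 ± 0.39, and none was called (adjusted p from 0.112 to 0.503). Of these, Dcx and Atoh7 overlapped between the fractions. Leaving out positive replicate 1 gave 1.63 for Dcx and leaving out positive replicate 2 gave 0.26, and Atoh7 was -1.12 without negative replicate 1 and -0.098 without negative replicate 2.

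Of 10 cartilage genes known as targets of Sox5, Sox6 and Sox9, 3 were above 0 and 7 below. Their median was -0.17, and 0 were called by limma. At an unadjusted p under 0.05, 1 was lower, against 9.83% of all features. That was Col9a1, a collagen gene also expressed in the eye, which read 767.9 and 427.9 on the positive and 1672.7 and 1421.6 on the negative arrays (-1.43 ± 0.29, adjusted p = 0.0904). With 1 array left out Col9a1 ran from -1.85 to -1.01. Col2a1, the main cartilage collagen gene, differed by -0.45 ± 0.42 and by 0.053 without negative replicate 1. Col9a2 and Col11a1 differed by -0.25 ± 0.11 and -0.23 ± 0.11. Among HMG-box genes outside the Sox family, 12 of 18 measured members were below 0, with a median of -0.09 and 0 called by limma; 3 were higher and 4 lower at an unadjusted p under 0.05, against 9.34% and 9.83% of all features. Hmgb2, a chromatin protein of dividing cells, differed by -1.39 ± 0.42, Tcf7l2 and Tcf7l1, the nuclear effectors of Wnt signalling, by -0.75 ± 0.19 and -0.53 ± 0.10, and the mitochondrial factor Tfam by -0.43 ± 0.17. Hmgb2 ran from -2.01 to -0.78 and Tcf7l2 from -0.985 to -0.52 with 1 array left out.

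Genes next to the Sox genes were called in no case. Of the 20 nearest protein-coding neighbours in the RefSeq order (GRCm38.p6), 18 had a feature, 0 were called by limma, 4 had an unadjusted p under 0.05 and 14 differed by less than 0.2 in size. Over all features 19.2% had an unadjusted p under 0.05 and 64.2% differed by less than 0.2. The neighbours of Sox2, Dnajc19 and Atp11b, differed by -0.16 and -0.05. Those of Sox4, Prl5a1 and Cdkal1, differed by 0.01 and -0.0047. Those of Sox12, Nrsn2 and Zcchc3, differed by 0.19 and -0.41, the latter opposite in sign to Sox12. The extremes were Bcat1 beside Sox5 (0.57 ± 0.13) and 1110004F10Rik beside Sox6 (-0.49 ± 0.10), which were picked after their values were seen.

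Markers of cells from outside the neural retina had medians near 0, although single genes did not. Of 7 microglia, 9 endothelial, 9 pigment cell and neural crest and 10 periocular mesenchyme and lens markers measured, 0 were called by limma, and the medians lay between -0.10 and 0.01. Ednrb, an endothelin receptor gene of neural crest that glial cells also express, had the lowest difference of its list, -0.91. Kdr, a receptor gene of vascular growth factors that is also known in retinal progenitors, was lower still and made up most of the summed endothelial intensity of 4229.4 and 2170.2 on the positive and 5955.5 and 3888.9 on the negative arrays. Both genes were singled out after their values were seen. Those sums were lower in replicate 2 of both fractions, as Sox8 and Sox9 were. Of the 9 endothelial markers, however, 2 were lower and 1 was higher in replicate 2 of both. Their median replicate difference was 0.0045 among positive and -0.041 among negative arrays. The part of these markers in the Sox values was not tested. At an unadjusted p under 0.05, 1 microglia marker was higher and 1 pigment cell and neural crest marker was higher and 1 lower. Over all features these shares were 9.34% higher and 9.83% lower. Of 7 astrocyte markers, 1 was called higher, against 0.82% of all features, and their median was 0.01. Of 12 amacrine and horizontal cell markers 11 had a positive difference (median 0.41), and 2 were called higher, against 0.82% of all features. At an unadjusted p under 0.05, 8 of the 12 were higher, against 9.34% of all features.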

How the data were processed

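RNA of sorted retinal cells was measured on 4 Affymetrix arrays, 2 per fraction. The deposited values are linear intensity values with a column for each array, and every column was used. Per the submitters' processing notes the authors used RMA (background correction, quantile normalisation and probe summary) and the genome build mm8; the sources used here give no version or filter. The linear scale was inferred from the range, and array medians were 218.4 to 222.9. Of 22431 features, 20176 had 1 gene symbol, 412 several and 1843 none. A gene took its feature with the highest mean.

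Log2 values were fitted without a pseudocount in limma 3.58.1 (R 4.3.3; lmFit and eBayes, positive minus negative), with two-sided p-values, Benjamini-Hochberg adjustment over all features and a threshold of 0.05. The fit was tested on simulated data with independent noise and known changes, each larger than the difference of any Sox member. It recovered nearly all of them, with a share of false calls above the nominal one. Recovery of smaller changes was not tested. Precision is limited by the number of arrays (5.27 degrees of freedom, median SE 0.12). Members and gene lists were chosen with earlier results of these data known, so their counts are descriptions. Named genes were all members, the 3 nearest profiles to a called member, all other Sox genes and the 4 widest differences of each related list; neighbours were added afterwards. Alternatives changed the variance model, normalisation, filter, offset, gene summary, pairing and arrays used. Promoter sequences are from RefSeq (GRCm38.p6); no entry for Sox9 was used here.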

Additional observations from a re-analysis of the deposited data

How the results depend on the processing

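Over 12 alternatives, the 10 Sox genes kept the sign of their difference in all 120 values; 112 were on the same side of the threshold, 6 became called and 2 were lost. The shared sign is no sign of stability. The variance models, the filter, the fit over genes and the replicate block left these estimates unchanged. Leaving out 1 array cannot reverse a gene whose fractions do not overlap. Without a replicate block and with all arrays, Sox2 remained the 1 Sox gene called. Features called lower were 21 with a variance trend, 51 in a fit over genes and 17 after adding 50 to each value. Leaving out 1 array gave 0 to 667 features called higher and 0 to 762 lower, 0 to 1 Sox genes higher and 0 to 2 lower. With a replicate block limma called 1377 of 22431 features higher and 1500 lower. In that fit 2 Sox genes were called higher (Sox4 and Sox12) and 3 lower (Sox2, Sox8 and Sox9). Its limma adjusted p was 0.0161 for Sox4, 0.0277 for Sox12, 0.00999 for Sox8 and 0.019 for Sox9. The block fit also called lower 10 of 11 progenitor and cell cycle, 9 of 17 glial, 5 of 14 SoxB1-linked and 4 of 18 HMG-box genes. Of these lists it called 0, 3, 2 and 1 genes higher, in that order. Of 14 SoxC-linked genes it called 5 higher and 1 lower, and of 12 amacrine and horizontal cell markers 6 higher. Dcx and Tubb3 were called higher and Atoh7 lower. The replicates share only a number, since the labels state no pairing, although deviations from the fraction means correlated at 0.48 between equally numbered arrays. The cause of these shifts was not tested, beyond the fewer samples and genes of some fits.

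Of the differences not called, 8 changed sign. With 1 array left out, Sox7 ran from -0.27 to 0.30, Sox10 from -0.10 to 0.044, Sox14 from -0.10 to 0.081, Sox17 from -0.18 to 0.0017, Sox30 from -0.10 to 0.21, Sry from -0.046 to 0.16, Col2a1 from -0.96 to 0.053 and Sox6os from -0.20 to 0.11. Sox14 was 0.014 after median centring of the arrays.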
